A study of Mus musculus with 8 samples.

Results

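Inflammasomes are protein complexes that myeloid cells build in the cytosol on sensing microbial products or cell damage. A sensor binds its trigger and recruits the adaptor ASC, ASC gathers procaspase-1, and active caspase-1 cleaves pro-interleukin-1β, pro-interleukin-18 and the pore-forming protein gasdermin D. In mice a separate arm runs through caspase-11, encoded by Casp4, which binds cytosolic lipopolysaccharide and also cleaves gasdermin D. The 6 genes described here are the sensors Nlrp3, Nlrc4 and Aim2, the adaptor Pycard (which encodes ASC) and the caspases Casp1 and Casp4. They were chosen by name as the core of the pathway, with earlier results of these data known. All 6 were found among 22549 gene symbols with a usable value in every library.

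The libraries were made from mouse retina and fall into 4 of infiltrating macrophages (numbered 5 to 8) and 4 of microglia (1 to 4), the resident macrophages of the retina. Every animal behind both groups carried Msi1-CreERT2/+ and R26R-DTA/+, on a mixed C57BL/6 and 129 background, and was about 5 months old at day 7 after injury. Msi1-CreERT2 is a tamoxifen-inducible Cre recombinase driven from Msi1, and R26R-DTA makes diphtheria toxin A in cells in which Cre has acted. Both groups therefore come from injured retina, and no uninjured library is included. The labels do not say whether libraries came from separate animals or from pools, or how the cells were isolated, so p-values measure only how these libraries vary, and that variation may be technical. Macrophage titles start with GFP, whose meaning is not given in the sources used here.

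Expression is given as FPKM (fragments scaled by the length of the transcript and by the mapped fragments of the library), which allows levels of different genes to be compared within a library. Between libraries FPKM also depends on the make-up of the RNA, so rescaled values are given where they change the picture. Depth, which FPKM does not keep, was estimated from the smallest steps in the FPKM at 21.6 to 24.8 M fragments in macrophage libraries and 11.6 to 20.7 M in microglial ones. Some libraries stood apart. Macrophage 6 had an FPKM sum of 512101, against 207154 to 300925 in the other macrophages and 296110 to 392952 in microglia. Microglia 2 had 5995 symbols at 1 FPKM or more, against 8172 to 9514 in the other microglia. Red cell genes summed to 0.693 to 23.7 FPKM in macrophages, and to 160, 165, 2437 and 0.683 FPKM in microglia 1 to 4. Y-linked genes summed to at most 1.97 FPKM in macrophages, to between 11.7 and 25.8 FPKM in microglia 1 to 3 and to 0.0533 FPKM in microglia 4, so Y-linked expression and group cannot be fully told apart.

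Marker genes went with the labels in summed level. The 10 microglial markers summed to 700 to 2397 FPKM in macrophages and 2638 to 4028 FPKM in microglia, and the 10 monocyte markers to 1629 to 4437 FPKM in macrophages and 761 to 1310 FPKM in microglia. The microglial transcription factor Sall1 was at 0.0352 FPKM or less in macrophages and 8.61 to 26.8 FPKM in microglia. Tmem119, another microglial marker, was not absent from macrophages, at 106 to 365 FPKM there and 179 to 339 FPKM in microglia. Markers of neutrophils, of which 9 of 10 were found, summed to 41.8 to 235 FPKM in macrophages and 0.196 to 1.37 FPKM in microglia. S100a8, S100a9 and Retnlg made up most of that sum, and the granule genes Camp, Ngp and Elane were listed at 0 in all 4 macrophage libraries. The 8 dendritic cell markers summed to 16.6 to 155 FPKM in macrophages and 2.58 to 34.9 FPKM in microglia. The 13 markers of retinal neurons and glia summed to 12.8 to 75.3 FPKM in macrophages and 78.6 to 207 FPKM in microglia, without overlap. Lymphocyte markers, of which 9 of 10 were found, overlapped, with 5.82 to 16.1 FPKM in macrophages and 0.0347 to 36.5 FPKM in microglia. The microglial, monocyte, neutrophil and retinal sums did not overlap between the groups, and their part in the results below was not tested. In such bulk libraries fewer cells of a type and less RNA per cell cannot be told apart.

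Gene by gene, the pathway had no member past the test. Genes that reached 1 FPKM in 4 or more of the 8 libraries were compared with limma on log2(FPKM + 1), with Benjamini-Hochberg adjustment over the 9352 genes tested and an adjusted p below 0.05 as the threshold for a call. Pycard, Casp1, Casp4 and Aim2 passed that filter, and Nlrp3 and Nlrc4 did not. Of the 4 tested genes 0 were called, where 2.34% of all tested genes were. At an unadjusted p below 0.05 the fit passed 1 of them, Pycard, where 15.0% of all tested genes passed and 3.42% did so with a lower level in macrophages. A two-sided exact permutation test of each of the 6 genes, adjusted over the 6, also called 0 and gave 1 unadjusted p below 0.05, for Nlrc4. With 4 libraries against 4 there are 70 splits and no p below 0.0286 can be reached, so an adjusted p below 0.05 would need 4 of the 6 genes at that floor, and a count of 0 says little.

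**Figure D1:**
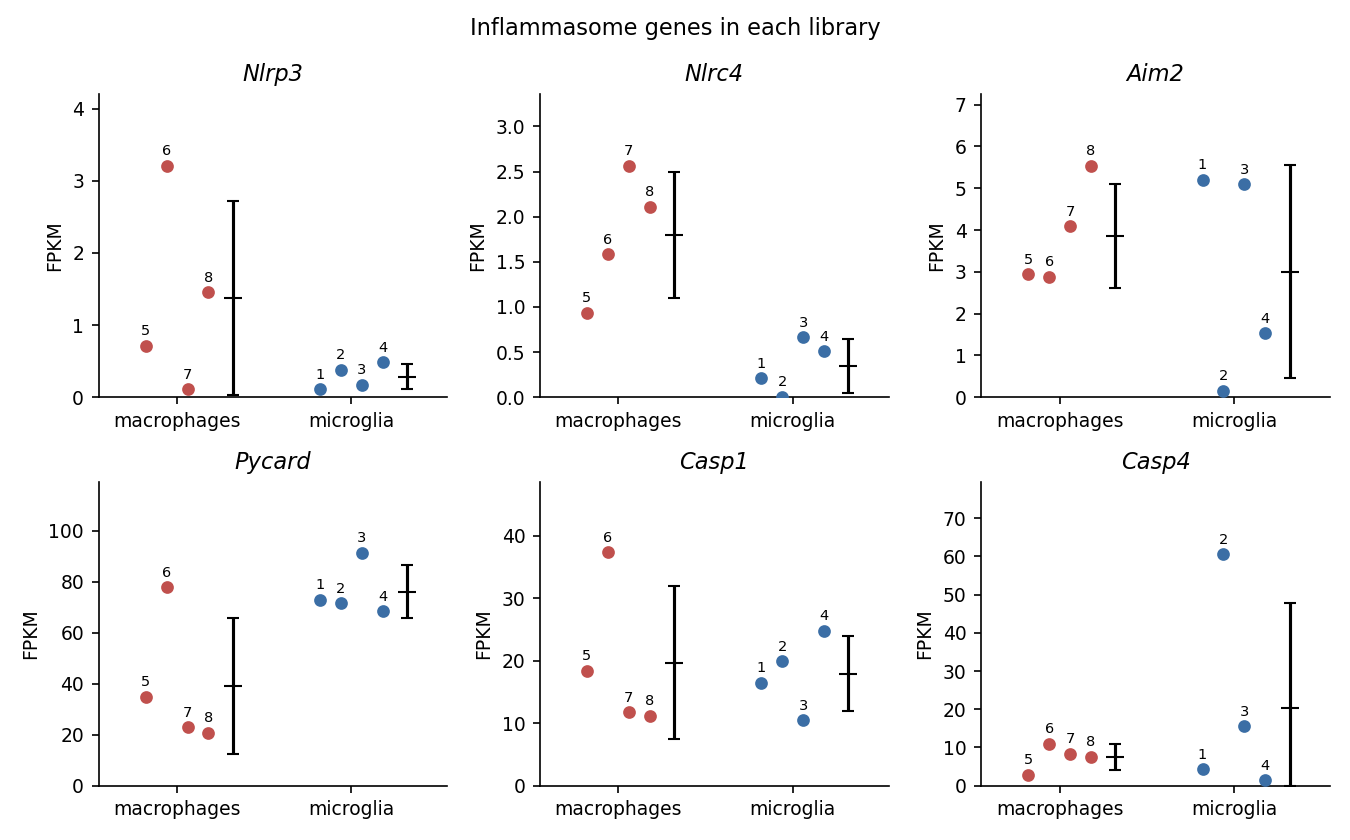
FPKM of the 6 inflammasome genes in each library, with macrophages on the left of each panel and microglia on the right; points carry the library number and bars give the mean ± SD (n = 4 each), drawn no lower than 0. Nlrc4 separates the groups, Pycard does so except for macrophage 6, and Casp4 in microglia is led by microglia 2.

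The adaptor Pycard was the most abundant of the 6 in all 8 libraries. ASC links sensors that carry a pyrin domain to caspase-1. Pycard had 34.9, 77.9, 22.9 and 20.7 FPKM in macrophages 5 to 8, against 73.0, 71.8, 91.4 and 68.4 FPKM in microglia 1 to 4. Macrophages 5, 7 and 8 lay below every microglial library, and macrophage 6 lay among the microglia. The means were 39.1 ± 26.6 FPKM in macrophages and 76.2 ± 10.4 FPKM in microglia (SD, n = 4 each). The log2 fold change, macrophages minus microglia, was −1.14 with a standard error of 0.53 (limma p = 0.0406, adjusted p = 0.311; two-sided exact permutation p = 0.114), so the difference did not pass the threshold.

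Macrophage 6 is the library with the high FPKM sum, and scaling the libraries to each other moved its Pycard value most. After rescaling to an equal FPKM sum, Pycard had 37.7, 49.4, 35.9 and 27.8 in macrophages 5 to 8, against 79.2, 66.9, 75.6 and 75.1 in microglia 1 to 4, and the groups no longer overlapped. They did not overlap after upper-quartile scaling either, with 21.7 to 41.3 in macrophages and 70.4 to 90.2 in microglia, or after median-of-ratios scaling, with 16.8 to 38.1 in macrophages and 61.9 to 85.3 in microglia. Among all tested genes, the macrophages lay wholly below the microglia in 1.95% as deposited, and in 2.47%, 3.93% and 4.60% under those 3 scalings in the same order. The exact permutation p of Pycard was then 0.0286, or 0.0857 adjusted over the 6 genes. The adjusted limma p was 0.0562 with median-of-ratios scaling and 0.0765 without macrophage 6, and it was highest with the Y-linked term, at 1.0. The fold stayed negative in every alternative run, from −1.53 to −0.91, and in none of them was the gene called.

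Casp1, the protease that ASC recruits, did not differ between the groups beyond its spread. Casp1 had 18.4, 37.4, 11.8 and 11.2 FPKM in macrophages 5 to 8, against 16.5, 19.9, 10.5 and 24.8 FPKM in microglia 1 to 4. The groups overlapped throughout, and macrophage 6 was again the highest macrophage library. The means were 19.7 ± 12.3 FPKM in macrophages and 17.9 ± 6.03 FPKM in microglia (SD, n = 4 each), with a log2 fold change of 0.03 ± 0.59 (standard error; limma adjusted p = 0.989; exact permutation p = 0.943). The sign of so small a fold was not stable, turning to −0.23 with median-of-ratios scaling and to −0.33 without macrophage 6.

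The proportion between adaptor and caspase can be read within a library, where no scaling between libraries enters. Pycard over Casp1 was 1.89, 2.08, 1.94 and 1.85 in macrophages 5 to 8, against 4.43, 3.60, 8.73 and 2.76 in microglia 1 to 4. All macrophage ratios lay below all microglial ones. The macrophage ratios were close together while Casp1 itself varied 3.34-fold among the same libraries. A ratio removes library scale, and after rescaling to an equal FPKM sum Casp1 spanned only 15.0 to 23.7 in macrophages. How often a pair of genes keeps so steady a ratio was not examined. The log2 ratio differed by −1.19 between macrophages and microglia (two-sided exact permutation p = 0.0286). This comparison was added after the values were seen, as 1 of 15 pairs of the 6 genes, and the p adjusted over the pairs was 0.214. Of the 15 pairs, 2 did not overlap between the groups and 0 had an adjusted p below 0.05. Among all pairs of tested genes above 0 in every library, 9.88% did not overlap. Nlrp3 and Nlrc4 were below the expression filter, so pairs that hold either of them lie outside that set. The share was 7.54% for ratios of a tested gene to Casp1 and 34.3% for ratios to Pycard, so a ratio with Pycard in it separated the groups often. Groups that are apart cannot come to overlap when libraries are left out, so only the size of the difference can move. Leaving out any 1 library, or microglia 2 and 3 together, gave a log2 difference from −1.42 to −0.85 over the 9 cases.

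**Figure D2:**
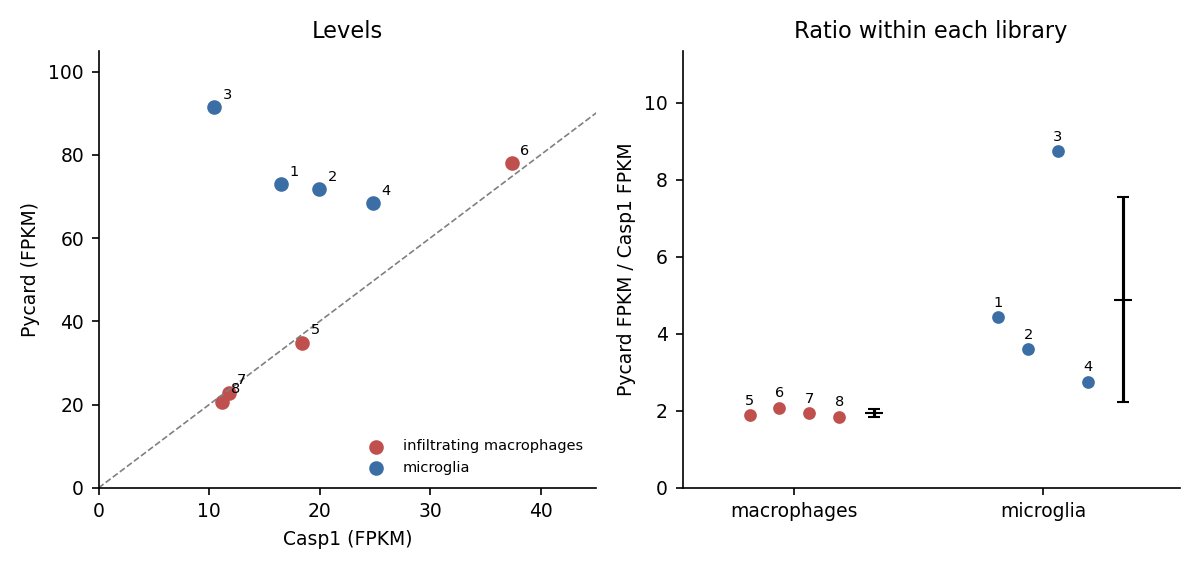
Left, Pycard against Casp1 in FPKM, a point per library with its number, macrophages in red and microglia in blue, and a dashed line where Pycard is 2 times Casp1. Right, Pycard FPKM over Casp1 FPKM in each library with the mean ± SD (n = 4 each), macrophages left of microglia. The 4 macrophage libraries lie along the line, at 1.85 to 2.08, and the 4 microglial libraries lie above it, at 2.76 to 8.73.

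Casp4, the sensor and protease of the lipopolysaccharide arm, varied more among microglia than between the groups. Casp4 had 2.89, 10.9, 8.36 and 7.56 FPKM in macrophages 5 to 8, against 4.26, 60.6, 15.6 and 1.42 FPKM in microglia 1 to 4. Macrophages spanned 3.79-fold and lay inside the microglial range, which spanned 42.7-fold and was led by microglia 2. The means were 7.44 ± 3.36 FPKM in macrophages and 20.4 ± 27.4 FPKM in microglia (SD, n = 4 each), and the log2 fold change was −0.45 ± 0.82 (standard error; limma adjusted p = 0.838; exact permutation p = 0.714). Without microglia 2 the fold turned to 0.39, and without microglia 2 and 3 to 1.13. No direction can be given for this gene.

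Casp1 and Casp4 are neighbours. On the mm9 build Casp1 spans chr9:5298517-5307281 and Casp4 spans chr9:5308860-5336791, both on the plus strand, with 1578 bases between them. Pycard lies at chr7:135134887-135137381 on the minus strand. None of the 3 loci is overlapped by another annotated gene. None of their transcripts shares a stretch of 50 bases with a protein-coding transcript of another gene. Only protein-coding transcripts were searched. The 250 bases before the start of each are printed from RefSeq on the GRCm38.p6 build. The 3 genes were picked because Pycard and Casp1 kept a steady proportion in macrophages and Casp4, the neighbour of Casp1, did not follow. Shared regulation was not tested. The windows are chr9:5298267-5298516 (plus strand) for Casp1, chr9:5308599-5308848 (plus strand, the first of 2 annotated starts) for Casp4 and chr7:127993868-127994117 (minus strand) for Pycard, each written 5′ to 3′ with the start of the gene just beyond its last base. Capitals mark matches to the motifs searched.
Casp1: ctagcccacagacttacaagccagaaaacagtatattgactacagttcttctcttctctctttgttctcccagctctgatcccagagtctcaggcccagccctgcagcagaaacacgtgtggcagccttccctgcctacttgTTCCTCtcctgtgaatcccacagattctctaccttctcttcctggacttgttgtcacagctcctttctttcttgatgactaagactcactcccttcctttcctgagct
Casp4: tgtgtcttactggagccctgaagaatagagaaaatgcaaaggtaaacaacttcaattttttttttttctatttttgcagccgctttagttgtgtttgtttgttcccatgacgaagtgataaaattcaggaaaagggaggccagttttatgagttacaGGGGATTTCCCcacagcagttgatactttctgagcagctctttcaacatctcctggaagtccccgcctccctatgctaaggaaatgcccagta
Pycard: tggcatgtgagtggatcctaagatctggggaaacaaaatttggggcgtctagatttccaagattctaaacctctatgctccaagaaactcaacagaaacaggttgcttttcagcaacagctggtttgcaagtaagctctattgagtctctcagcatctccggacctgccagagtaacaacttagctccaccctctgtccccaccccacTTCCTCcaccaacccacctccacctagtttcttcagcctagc
The motifs were searched on both strands and were GAGGAA, a core bound by the myeloid factor PU.1, the NF-kappaB consensus, a pair of GAAA with 2 bases between them for interferon regulatory factors, and TTCNNNGAA for STAT factors. Casp1 has 1 match to GAGGAA, on the opposite strand at −108 to −103 from the start, and Pycard has 1, also on the opposite strand, at −42 to −37. The window of Casp4 has no such match but holds 2 overlapping matches to the NF-kappaB consensus, from −93 to −83. Among 32851 windows of 250 bases before annotated mouse starts, 23.3% held GAGGAA and 3.90% the NF-kappaB consensus, against 2.98% for the spaced GAAA pair and 7.02% for TTCNNNGAA. Of the other 3 genes, Aim2 has 2 matches to GAGGAA, Nlrp3 has 3 in the window of its second annotated start and an NF-kappaB match in that of its first, and Nlrc4 has none of these. GAGGAA is therefore not particular to Casp1 and Pycard. The spaced GAAA pair and TTCNNNGAA were found in the windows of none of the 6 genes. A match is a description of letters and not a measured site.

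Among the sensors, Nlrc4 was the one whose groups stood apart. The protein responds to bacterial flagellin and secretion system parts that NAIP receptors have bound, and it can recruit caspase-1 directly. Nlrc4 had 0.936, 1.58, 2.56 and 2.11 FPKM in macrophages 5 to 8, against 0.211, 0.00398, 0.665 and 0.508 FPKM in microglia 1 to 4. Every macrophage library was above every microglial one, with means of 1.8 ± 0.701 FPKM in macrophages and 0.347 ± 0.296 FPKM in microglia (SD, n = 4 each). The log2 fold change was 1.05 after 1 was added to each FPKM, which shrinks the fold of so low a gene. The exact permutation p was 0.0286, the smallest possible, and 0.171 adjusted over the 6 genes.

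Nlrc4 reached 1 FPKM in 3 libraries and so stayed out of the main fit, and in a fit of all 20454 genes above 0 in any library it had a limma p of 0.0267 and an adjusted p of 0.475. Of the 6 genes, Nlrc4 alone had groups that did not overlap as deposited. None of the 4 that passed the filter did, where 7.63% of all tested genes had groups apart. A count of 1 in 6 is to be read against 5.33% of the genes above 0 in any library, and against 3.99% for those higher in macrophages. Among genes that were above 0 in all 8 libraries but below the filter, 2.99% lay wholly higher in macrophages. The levels correspond to about 85.8 to 219 fragments in macrophages and about 0.296 to 46.2 in microglia, so the lowest microglial value is under 1 fragment. After rescaling to an equal FPKM sum, Nlrc4 was at 1.0 to 4.02 in macrophages and 0.00371 to 0.557 in microglia, and the groups stayed apart under upper-quartile and median-of-ratios scaling too. Under those 3 scalings 2 of the 6 genes, Nlrc4 and Pycard, did not overlap, where 7.03%, 6.39% and 6.40% of the genes above 0 in any library did not. After quantile normalization Nlrc4 overlapped, with 0.550 to 3.55 in macrophages and 0.264 to 1.12 in microglia.

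Nlrc4 and Pycard together gave the second ratio that separated the groups. Nlrc4 over Pycard was 0.0268, 0.0203, 0.112 and 0.102 in macrophages 5 to 8, against 0.00290, 5.55e-05, 0.00727 and 0.00742 in microglia 1 to 4. The log2 ratio was 4.86 higher in macrophages (exact permutation p = 0.0286, adjusted over the 15 pairs 0.214). That size rests on microglia 2, where Nlrc4 is at about 0.296 fragments and the authors' interval for it starts at 0, and no pseudocount was added. Without microglia 2 the difference was 3.21, and the 9 leave-outs spanned 3.21 to 5.57.

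Nlrp3, which responds to potassium efflux, crystals and extracellular ATP, was the lowest of the 6 in mean level in both groups. Nlrp3 had 0.715, 3.21, 0.109 and 1.45 FPKM in macrophages 5 to 8, against 0.109, 0.379, 0.174 and 0.480 FPKM in microglia 1 to 4. Macrophages 5, 6 and 8 were above every microglial library, and macrophage 7 was level with the lowest of them. The means were 1.37 ± 1.34 FPKM in macrophages and 0.285 ± 0.174 FPKM in microglia (SD, n = 4 each), with a log2 fold change of 0.72 and an exact permutation p of 0.143. In the fit of all genes without a filter its p was 0.130 and its adjusted p 0.591. Macrophage 7 rests on about 9.81 fragments and microglia 1 on about 4.89, so a difference between those libraries was not detectable at this depth.

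Aim2, a receptor for double-stranded DNA in the cytosol, varied most among microglia. Aim2 had 2.95, 2.89, 4.09 and 5.54 FPKM in macrophages 5 to 8, against 5.20, 0.152, 5.09 and 1.54 FPKM in microglia 1 to 4. Macrophages spanned 1.92-fold and microglia 34.2-fold, and the groups overlapped. The means were 3.87 ± 1.24 FPKM in macrophages and 3.0 ± 2.55 FPKM in microglia (SD, n = 4 each), with a log2 fold change of 0.55 ± 0.70 (standard error; limma adjusted p = 0.762; exact permutation p = 0.457). The low value of microglia 2 corresponds to about 8.25 fragments. Aim2 spans chr1:175350735-175396167 on the plus strand of mm9, Nlrc4 spans chr17:74825635-74858448 on the minus strand, and Nlrp3 spans chr11:59356188-59380458 on the plus strand. Of the positions along the transcripts of Aim2, 0.21% share 50 bases with a protein-coding transcript of another gene, and none do for Nlrc4 or Nlrp3.

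Set in order of mean FPKM, the macrophages ran Pycard, Casp1, Casp4, Aim2, Nlrc4 and Nlrp3, and the microglia Pycard, Casp4, Casp1, Aim2, Nlrc4 and Nlrp3. The ranges of Pycard and Casp1 overlapped in macrophages, yet Pycard was higher within each of the 4 libraries. Casp1 lay above Casp4, and Aim2 above Nlrc4, without overlap in macrophages. Casp4 and Aim2 overlapped there, as did Nlrc4 and Nlrp3. In microglia Pycard stood clear of both caspases, Casp4 and Casp1 could not be ordered, since each was higher in 2 of the 4 libraries, and Casp1 stood clear of Aim2. The ranges of Aim2 and Nlrc4 overlapped, though Aim2 was higher within each of the 4 libraries, and those of Nlrc4 and Nlrp3 overlapped too.

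As shares of the summed FPKM of the 6 genes, Pycard took 57.4%, 58.2%, 46.0% and 42.7% in macrophages 5 to 8, against 73.5%, 47.0%, 74.1% and 70.4% in microglia 1 to 4. Microglia 2 departs from the other microglia because Casp4 took 39.6% of its sum, against 1.46% to 12.6% in the other 3. Casp1 took 23.0% to 30.3% in macrophages and 8.49% to 25.5% in microglia. The 3 sensors together took 7.56%, 5.73%, 13.6% and 18.7% in macrophages 5 to 8, against 5.57%, 0.350%, 4.80% and 2.60% in microglia 1 to 4, a sum chosen after the values were seen and not tested. Nlrc4 took 1.18% to 5.15% in macrophages and 0.00260% to 0.538% in microglia, with Aim2 at 2.15% to 11.4% in macrophages and 0.0995% to 5.24% in microglia, and Nlrp3 at 0.220% to 2.99% in macrophages and 0.110% to 0.494% in microglia. The sum itself was 48.6 to 134 FPKM in macrophages and 97.2 to 153 FPKM in microglia.

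**Figure D3:**
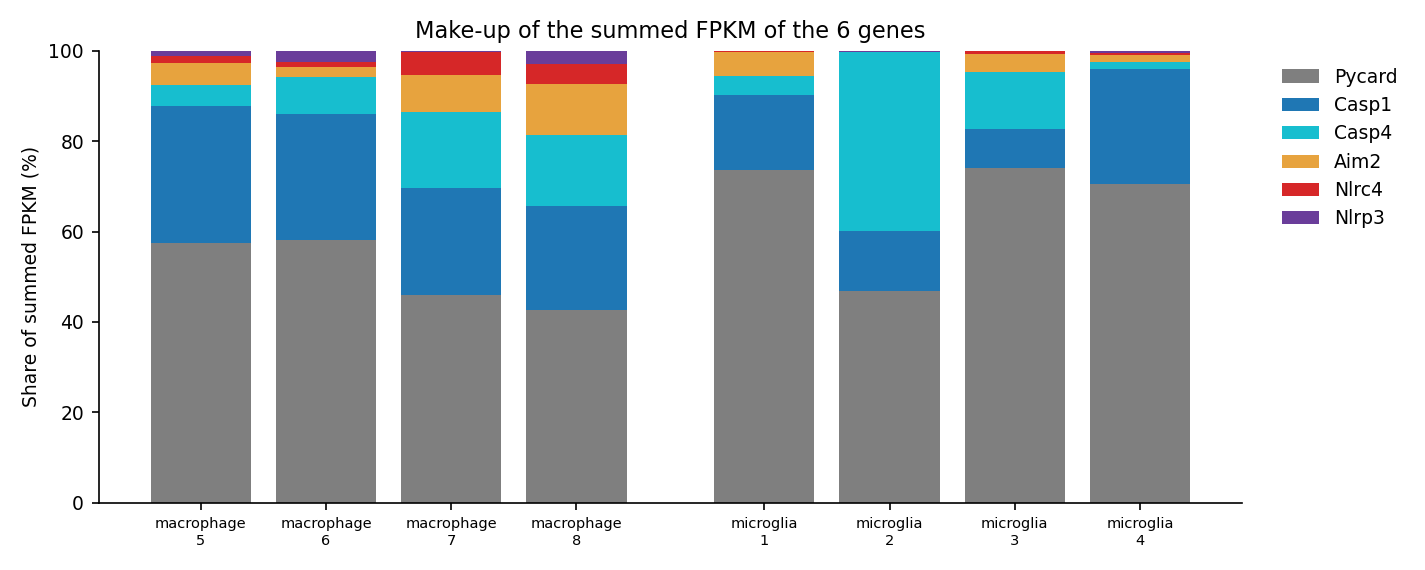
Share of the summed FPKM of the 6 inflammasome genes taken by each gene, in percent, a bar per library, with the 4 macrophage libraries on the left and the 4 microglial libraries on the right. Pycard takes 42.7% to 58.2% in macrophages and 47.0% to 74.1% in microglia, where the low value is microglia 2, in which Casp4 takes 39.6%.

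The substrates of the caspases were measured in the same fit. Il1b, which encodes pro-interleukin-1β, had 31.4, 57.0, 12.6 and 128 FPKM in macrophages 5 to 8, against 12.5, 44.5, 0 and 4.49 FPKM in microglia 1 to 4. The groups overlapped through microglia 2, and the log2 fold change of 2.48 ± 0.87 (standard error) did not pass the threshold (limma p = 0.00889, adjusted p = 0.163; exact permutation p = 0.114). Without microglia 2 it was called. Il18, which encodes pro-interleukin-18, had 9.75, 13.3, 15.7 and 4.67 FPKM in macrophages, against 4.88, 0, 13.8 and 15.5 FPKM in microglia (limma adjusted p = 0.669). Gsdmd, which encodes the pore-former gasdermin D, averaged 32.3 ± 10.1 FPKM in macrophages and 24.4 ± 7.43 FPKM in microglia (SD, n = 4 each; log2 fold change 0.38, limma adjusted p = 0.789). Of the 5 tested genes in the list of substrates, pore proteins and released cytokines, 0 were called. The most abundant of them, Ninj1, which encodes a membrane protein that completes rupture of dying cells, had 38.5 to 124 FPKM in macrophages and 51.7 to 183 FPKM in microglia (limma adjusted p = 0.696).

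Beyond the 6 genes, 7 lists of related genes held 90 symbols, of which 89 were found and 71 tested. In them 4 genes were called higher in macrophages and 0 lower, that is 5.63% higher, where 1.65% of all tested genes were called higher and 0.695% lower. The median log2 fold change of the 71 was 0.76 and that of all tested genes 0.37, and 70.4% of the 71 had a positive fold against 67.1% of all tested genes. The median of the 4 tested inflammasome genes was −0.21. These counts describe the lists and were given no test of their own. The lists were chosen with earlier results of these data known, so a share above that of all tested genes is no support. Of the called genes, Nlrp1b and Pydc3 passed the expression filter through the macrophages. In microglia they reached 1 FPKM only in microglia 2.

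**Figure D4:**
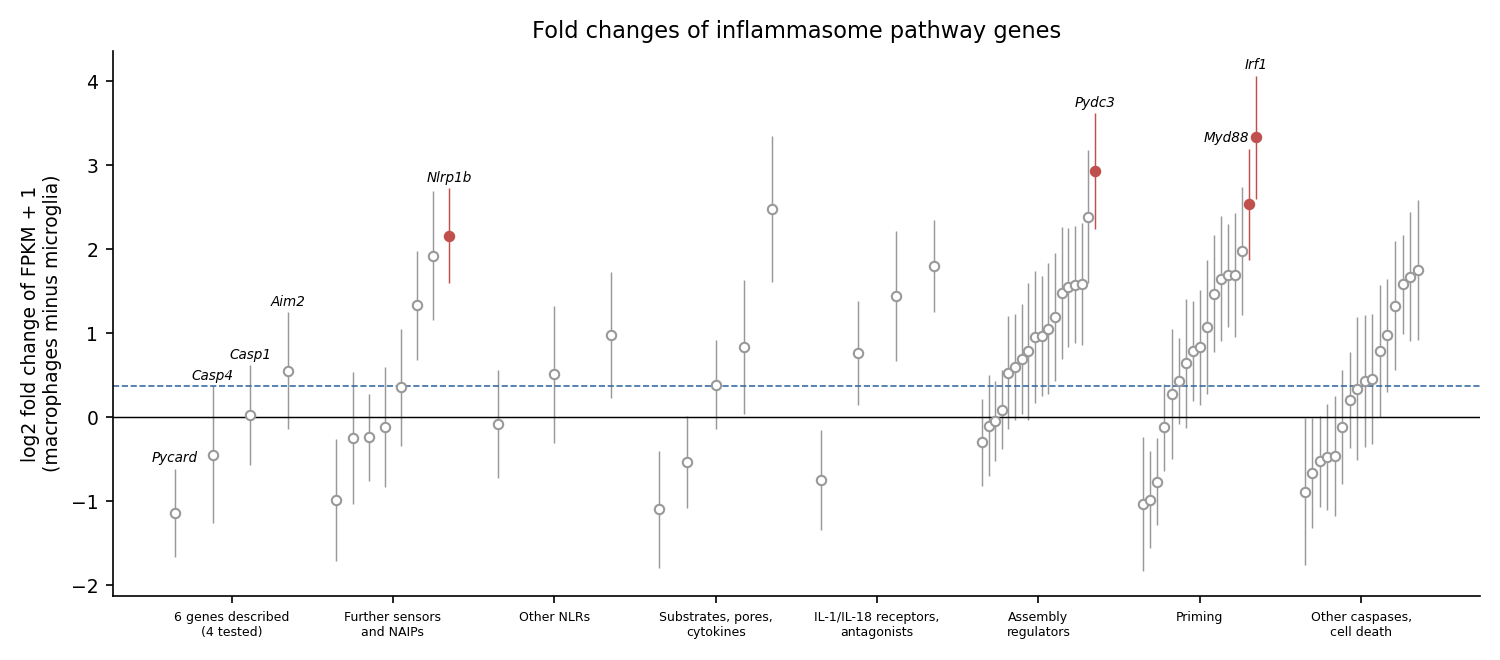
Log2 fold change of FPKM + 1, macrophages minus microglia, with its standard error, for the 4 tested inflammasome genes and the tested genes of the 7 further lists, each list in order of fold. Filled red points are genes with an adjusted limma p below 0.05 (Nlrp1b, Pydc3, Myd88 and Irf1), and the dashed line is the median of all tested genes, 0.37.

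Of the 8 tested genes among further sensors and NAIP receptors, 1 rose in macrophages, 0 fell and the median log2 fold change was 0.12. Nlrp1b, a sensor cleaved by anthrax lethal factor, had 3.65, 7.15, 4.79 and 4.03 FPKM in macrophages 5 to 8, against 0.106, 1.13, 0.0844 and 0.0756 FPKM in microglia 1 to 4. The groups did not overlap, and the log2 fold change was 2.16 ± 0.56 (standard error; limma adjusted p = 0.0388). Nlrp1b passed the expression filter through the macrophages, and without the filter its limma adjusted p was 0.197. It shares 50-base stretches with Nlrp1a and Nlrp1c-ps over 1.34% of its transcript positions, and Nlrp1a, at 0.807 to 5.57 FPKM in macrophages and 0.0309 to 5.73 FPKM in microglia, overlapped (limma adjusted p = 0.855). Naip2 and Naip5, which encode NAIP receptors upstream of Nlrc4, had 1.82 to 20.2 and 3.83 to 6.88 FPKM in macrophages. In microglia they had 4.76 to 37.3 and 2.22 to 16.3 FPKM, with limma adjusted p-values of 0.560 and 0.960. For Naip1 and Naip6 the limma adjusted p-values were 0.868 and 0.920. The other NOD-like receptors had 0 of 3 tested genes called, and the most abundant of them, the mitochondrial Nlrx1, averaged 7.61 ± 3.04 FPKM in macrophages and 4.37 ± 3.37 FPKM in microglia (SD, n = 4 each; limma adjusted p = 0.575).

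Of the 18 tested activators and regulators of assembly, 1 rose, 0 fell and the median log2 fold change was 0.96. Pydc3, a pyrin domain gene of the Ifi200 cluster, had 11.5, 22.5, 7.42 and 12.2 FPKM in macrophages 5 to 8, against 0.582, 2.80, 0.297 and 0.254 FPKM in microglia 1 to 4. The groups did not overlap, with a log2 fold change of 2.93 ± 0.69 (standard error; limma adjusted p = 0.0202). Pydc3 passed the expression filter through the macrophages, and without the filter its limma adjusted p was 0.111. Of its transcript positions, 24.0% share 50 bases with Pydc4 or Gm4955, so its level is uncertain. Nek7, a kinase needed for NLRP3 assembly, had 7.14 to 23.0 FPKM in macrophages and 8.21 to 22.4 FPKM in microglia (limma adjusted p = 0.960). P2rx7, the ATP-gated channel upstream of NLRP3, had 4.19 to 15.1 FPKM in macrophages and 0.812 to 7.95 FPKM in microglia (limma adjusted p = 0.559).

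Of the 17 genes of the priming list, all tested, 2 rose, 0 fell and the median log2 fold change was 0.83. Irf1, a transcription factor of the interferon response, had 39.4, 39.6, 29.9 and 30.3 FPKM in macrophages 5 to 8, against 4.81, 0.0269, 0.757 and 13.5 FPKM in microglia 1 to 4 (log2 fold change 3.34 ± 0.73, limma adjusted p = 0.0117). Myd88, through which Toll-like and interleukin-1 receptors signal, had 39.2, 94.5, 19.2 and 46.9 FPKM in macrophages 5 to 8, against 14.3, 2.27, 3.18 and 14.8 FPKM in microglia 1 to 4 (log2 fold change 2.53 ± 0.67, limma adjusted p = 0.0413). Neither gene overlapped between the groups. Tlr4 had 2.16 to 24.1 FPKM in macrophages and 0.159 to 10.9 FPKM in microglia (limma adjusted p = 0.566).

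With a pseudocount of 0.1, without the expression filter, with a term for Y-linked expression, or without macrophage 6, 0 of the 71 genes were called. Without macrophage 5 or macrophage 8, or without microglia 3, 1 was called, and without microglia 1, 2 were. Irf1 was called in 14 of 19 alternatives with an adjusted p, Pydc3 in 10 of 19, Myd88 in 8 of 19 and Nlrp1b in 7 of 18. Leaving out microglia 2 and 3 together left 0 genes of the priming list called. The limma adjusted p was then 0.158 for Irf1 and 0.433 for Myd88, and Nlrp1b and Pydc3 were still called. Microglia 2 and 3 held the lowest values of Irf1 and Myd88 among the microglia. Monocyte and neutrophil marker sums were higher in all 4 macrophage libraries than in any microglial one, and their part in these calls was not tested.

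Receptors and antagonists of interleukin-1 and interleukin-18 had 0 of 4 tested genes called, with a median log2 fold change of 1.10. Il18bp, the secreted inhibitor of interleukin-18 and the most abundant of them, averaged 23.5 ± 14.5 FPKM in macrophages and 38.8 ± 24.2 FPKM in microglia (SD, n = 4 each; limma adjusted p = 0.592). Il1r2, a decoy receptor that was below the expression filter, had 15.3, 8.30, 0.0366 and 18.7 FPKM in macrophages 5 to 8 and was listed at 0 in all 4 microglial libraries. It is named after its values were seen, and no fold is given against a group listed at 0. Other caspases and cell death regulators had 0 of 16 tested genes called, and the most abundant, Casp8, averaged 27.2 ± 9.24 FPKM in macrophages and 40.2 ± 18.4 FPKM in microglia (SD, n = 4 each; limma adjusted p = 0.698).

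Genes of similar abundance were searched for the profile closest to each tested inflammasome gene, as the mean absolute difference of centred log2(FPKM + 1) over the 8 libraries. For Pycard these were Hsbp1 at 0.170 and Sft2d1 at 0.171, among 936 candidates with a median difference of 0.656. For Casp1 they were Fam54b at 0.179 and Cetn3 at 0.195, and for Aim2 Fam26f at 0.157 and Mphosph8 at 0.190. The nearest to Casp4 were Dnase1l1 at 0.483 and Dnalc4 at 0.487, among 2734 candidates. The median difference of the candidates was also larger for Casp4, at 1.38, against 0.696 for Casp1 and 0.850 for Aim2. Each distance is therefore best read against the median of its own candidates.

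The fold changes of the 6 genes moved unevenly between processing choices. Those of Pycard were negative in every alternative run, and Casp1 and Casp4 took both signs. Nlrc4 stayed positive, from 0.68 with quantile normalization to 2.35 with a pseudocount of 0.1. Nlrp3, at 0.72 as reported, was at 0.39 without macrophage 6 and at 0.03 with quantile normalization, where the median of all tested genes was 0.07, and at 1.45 with a pseudocount of 0.1. Aim2, at 0.55 as reported, was at 0.055 without microglia 2 and at 0.087 with quantile normalization. The folds of Nlrp3 and Aim2 were positive in every alternative run. They became so small in some that no direction can be given for either gene.

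**Figure D5:**
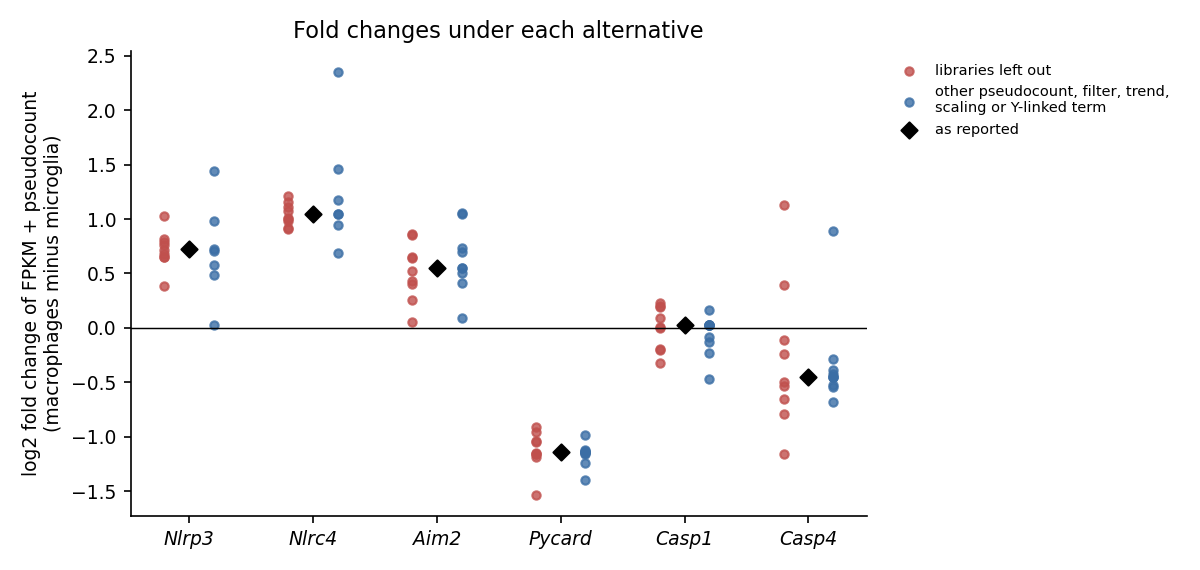
Log2 fold change, macrophages minus microglia, of the 6 inflammasome genes as reported (black) and under the alternatives, with libraries left out in red and other pseudocounts, filters, trends, scalings or a Y-linked term in blue. Pycard stays between −1.53 and −0.91, and Casp4 runs from −1.16 to 1.13.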

How the data were processed

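RNA-seq was measured in 4 libraries of infiltrating macrophages and 4 of microglia, grouped by the tissue subtype in the labels. RNA was extracted with Sepazol, per the labels' protocols. bcl2fastq 1.8.4, Cufflinks 2.1.1 and the mm9 build were used, per the submitters' processing notes. The sources used here do not name the aligner, annotation or strand setting. Each deposited file gives the authors' FPKM estimate per gene, per the file headers. FPKM removes depth and transcript length but not composition, so values were also rescaled. Symbols on several rows were summed (463 repeat rows), and 9 symbols with a failed estimate were left out. Depth is known only as an estimate, which assumes fragments of 150 bases.

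limma 3.58.1 (R 4.3.3) tested log2(FPKM + 1), with an intensity trend, no covariate and a two-sided Benjamini-Hochberg adjusted p; it was tested on simulated data first. Genes reaching 1 FPKM in 4 or more of 8 libraries entered. Exact permutation tests, ratios and tables used Python 3.11.15, pandas 2.3.3 and numpy 2.4.6. The fold on this scale understates the change of low genes. Alternatives were other pseudocounts, filters and scalings, a Y-linked term and leaving out libraries; ratios were added after the values were seen.

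The members and lists were chosen with earlier results of these data known. Named genes are the 6 members, Il1b, Il18 and Gsdmd, up to 3 called genes of each list by mean FPKM (otherwise its most abundant tested gene), and the 2 nearest profiles of each tested member; other list genes are named for their role and were chosen after their values were seen. Loci are from the files on mm9, overlaps from GENCODE vM1 on the same build, and promoter windows from RefSeq on GRCm38.p6, in which all 6 symbols matched.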

Additional observations from a re-analysis of the deposited data

Results flagged for a closer look

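A library far from the other 3 of its group was found in 4 of 50 groups examined (25 named genes in 2 groups), and chance marks about 1 group in 20. Nlrp1b was at 1.13 FPKM in microglia 2, against 0.0756 to 0.106 FPKM in the other microglia. Pydc3 was at 2.80 FPKM in the same library, against 0.254 to 0.582 FPKM in the others. Casp8 was at 67.7 FPKM in microglia 3, against 29.9 to 32.8 FPKM in the other microglia. Hsbp1, the gene with the profile closest to Pycard, was at 136 FPKM in macrophage 6, against 33.3 to 47.7 FPKM in the other macrophages. None of the 6 inflammasome genes was among the 4.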

How the results depend on the processing

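limma called no inflammasome gene in any alternative, with 0 to 2 at an unadjusted p below 0.05. The exact permutation test adjusted over the 6 also called none, which says nothing about stability, since 4 of the 6 would have to reach the floor together and without microglia 2 and 3 no p below 0.05 exists. The count of all called genes, 219, became 136 with a pseudocount of 0.1, 50 without a filter, 132 with a filter of 5 FPKM, 335 after rescaling to an equal sum and 25 with the Y-linked term, and 119 to 258 with 1 library left out. The 4 called list genes became 0 with a pseudocount of 0.1, without a filter and with the Y-linked term, and 0 to 5 with 1 library left out. The split of higher and lower calls, 154 and 65, was 163 and 111 with upper-quartile scaling, 138 and 111 with median-of-ratios, 169 and 123 with quantile normalization and 78 and 79 without macrophage 6. The median fold of all genes, 0.37, was 0.48, 0.27, 0.16 and 0.07 under equal sum, upper quartile, median-of-ratios and quantile scaling, so a fold is best read against it.

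Folds changed sign as follows, and the cause was not tested. With upper-quartile scaling Casp1 was at −0.082 and Fam54b at −0.022, with median-of-ratios Casp1 at −0.23 and Fam54b at −0.17, and with quantile normalization Casp1 at −0.13 and Fam26f at −0.042. With the Y-linked term Casp1 was at −0.47, Casp4 at 0.89, Fam54b at −0.60, Dnase1l1 at 0.29 and Dnalc4 at 0.19. Without microglia 2 and 3 Casp1 was at −0.20, Casp4 at 1.13, Ninj1 at 0.12, Fam54b at −0.13, Dnase1l1 at 0.83 and Dnalc4 at 0.38. With 1 library left out, Casp1 ran from −0.33 to 0.22, Casp4 from −1.16 to 0.39, Il18 from −0.037 to 1.31, Fam26f from −0.078 to 0.73, Fam54b from −0.25 to 0.32 and Dnase1l1 from −0.57 to 0.35. Among 368 refitted folds of named genes with an adjusted p, leaving out alternatives that repeat the fold by construction, 305 kept direction and side of the threshold, 31 lost a call, 6 gained one and 26 changed sign. Among the named genes only Nlrp1b, Pydc3, Myd88 and Irf1 were called. The 31 lost calls are therefore all theirs and are to be read against their refits alone. Nlrp3 and Nlrc4 have no adjusted p in these refits.

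No paired analysis was possible because the libraries are numbered 5 to 8 in macrophages and 1 to 4 in microglia and share no number. Depth limits Nlrp3 and Nlrc4, which rest on fewer than 50 estimated fragments in every microglial library.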
